A study of Mus musculus with 6 samples.

Results

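Podocyte and mesangial genes of the kidney glomerulus were followed in 6 RNA-seq libraries of proximal tubule cells, by matching 31 gene symbols in a table of 52405 Ensembl genes. All 31 were found, each on 1 row. They were collected as glomerular genes, with earlier results of these data known, and some were chosen by their high FPKM in the 2 libraries numbered 1, so their height in those libraries is given as a description, with no test.

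The cells of 3 libraries came from KO mice, which lack the insulin-like growth factor 1 receptor (Igf1r) in the proximal tubule, and those of 3 libraries from control (Ctr) mice. Both groups were adult female C57BL/6 mice with uninjured kidneys, and both had their ovaries removed at postnatal day 21. Cells carrying prominin-1 at their surface were pulled from dissociated kidney cortex with magnetic beads. The labels speak of biological replicates, and they neither name the Cre driver nor explain the replicate numbers. The libraries are written KO1 to KO3 and Ctr1 to Ctr3 here.

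The glomerulus is the filter at the head of each nephron. Podocytes wrap its capillaries, and their foot processes are joined by the slit diaphragm, a thin sheet of adhesion proteins built on nephrin. Below it lies a basement membrane of type IV collagen and laminin, and mesangial cells, contractile cells with features of pericytes, hold the capillary loops together. Proximal tubule cells follow downstream and form no slit diaphragm, whereas many cytoskeletal, adhesion and basement membrane genes are shared by both.

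Values are FPKM, fragment counts scaled by transcript length and library size, as deposited by the authors. Libraries held about 19800000 to 24600000 fragments, estimated from the steps in which low values change, so that 1 fragment of a transcript of 2000 bases is worth about 0.0203 to 0.0253 FPKM. Members below about 0.1 FPKM therefore rest on a handful of fragments at that length, and these depths cover counting error only. Igf1r was at 4.78, 7.67 and 5.08 FPKM in KO1, KO2 and KO3, against 18.7, 15.3 and 22.7 FPKM in Ctr1, Ctr2 and Ctr3. KO was thus lower by a log2 change of -1.55 (SE 0.19, adjusted p = 0.267 by limma, and exact two-sided permutation p = 0.1, the smallest that 3 against 3 libraries allow). Proximal tubule markers were high in every library: the 20 markers summed to 10470, 10590 and 12070 FPKM in KO and 11930, 12080 and 13770 FPKM in Ctr. Genes of other tubule segments were found in every library too. Over the 6 libraries, 8 thick ascending limb genes summed to 2240 to 4335 FPKM. The 15 genes of the distal tubule and collecting duct summed to 1020 to 1465 FPKM. Prom1, which encodes prominin-1, was at 73.7 to 82.1 FPKM in KO and 66.7 to 86.1 FPKM in Ctr.

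Short stretches of promoter are shown for Ptpro, Itga8 and Col4a4, from RefSeq on GRCm38.p6. They run 5′ to 3′ on the gene's own strand, from 250 bases before to 50 after the annotated start. Whether these stretches bear on the values below was not tested. The table matched 23 of the 31 members, with 26 windows. Ptpro, a podocyte gene that was far higher in the libraries numbered 1, holds the letters GTGGGAG, a Wt1-type motif. Itga8, a mesangial gene of the same pattern, holds CATATG, an E-box, the class of site bound by helix-loop-helix factors such as Tcf21. Capitals in both mark the match. Col4a4 and Col4a3 lie head to head, and the capitals in the last window mark the 71 bases between their first bases.
Ptpro, chr6:137252049-137252348, plus strand: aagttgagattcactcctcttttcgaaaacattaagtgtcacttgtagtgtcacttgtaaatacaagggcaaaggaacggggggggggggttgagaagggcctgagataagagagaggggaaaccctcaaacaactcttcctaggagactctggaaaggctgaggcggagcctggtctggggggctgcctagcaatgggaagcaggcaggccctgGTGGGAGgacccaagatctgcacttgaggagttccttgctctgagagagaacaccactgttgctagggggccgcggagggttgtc
Itga8, chr2:12301895-12302194, minus strand: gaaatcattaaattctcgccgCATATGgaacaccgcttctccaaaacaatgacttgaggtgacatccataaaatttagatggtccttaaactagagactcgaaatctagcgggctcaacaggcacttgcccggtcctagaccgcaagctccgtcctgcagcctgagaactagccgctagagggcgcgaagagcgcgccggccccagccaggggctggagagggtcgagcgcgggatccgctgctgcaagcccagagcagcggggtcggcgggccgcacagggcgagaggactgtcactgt
Col4a4, chr1:82586800-82587099, minus strand: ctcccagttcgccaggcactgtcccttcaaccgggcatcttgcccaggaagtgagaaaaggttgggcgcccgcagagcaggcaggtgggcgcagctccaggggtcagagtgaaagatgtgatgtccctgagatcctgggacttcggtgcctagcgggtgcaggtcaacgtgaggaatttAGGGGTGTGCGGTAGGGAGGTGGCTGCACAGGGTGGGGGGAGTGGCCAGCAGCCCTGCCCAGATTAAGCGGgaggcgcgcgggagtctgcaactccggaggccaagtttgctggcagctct
GTGGGAG stood on either strand in 5 of the 26 windows of the matched members, each of another gene, and in 9.73% of all 32851 promoter windows. The 5 genes were Clic3, Ptpro, Actn4, Trpc6 and Cd2ap, of which Actn4 and Cd2ap did not follow the libraries numbered 1. TAATTA, an Lmx1b-type motif, stood in Magi2 alone (5.29% of all windows) and CATATG in Itga8 alone (3.91% of all windows). CAGCTG, another E-box, stood in 4 members (16.3% of all windows). No motif overlapped another in the 3 windows printed, and a match describes letters in a window, not a bound site.

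KO1 and Ctr1 held most of the glomerular transcripts in this series. In 25 of the 31 members both of these libraries lay above all 4 others, and in 19 of them the level was over 4-fold higher in KO1 than the mean of KO2 and KO3 and over 4-fold higher in Ctr1 than the mean of Ctr2 and Ctr3. These 19 genes summed to 309.3 FPKM in KO1 and to 14.1 and 17.5 FPKM in KO2 and KO3, against 391.8 FPKM in Ctr1 and 23.0 and 16.3 FPKM in Ctr2 and Ctr3. Their fold had a median of 22.5 within KO and of 22.4 within Ctr. The other 12 members summed to 273.5, 249.1 and 235.6 FPKM in KO1, KO2 and KO3 and to 328.9, 240.6 and 248.7 FPKM in Ctr1, Ctr2 and Ctr3. In bulk samples, fewer cells of a type and less RNA per cell cannot be told apart.

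The 4-fold line was drawn after the values were seen. Just inside it were Trpc6 (9.6-fold in KO and 5.43-fold in Ctr) and Plce1 (5.54-fold in KO and 7.49-fold in Ctr), and just outside was Rhpn1 (3.52-fold in KO and 4.49-fold in Ctr). Of the 12770 genes with a mean of at least 1 FPKM over the 6 libraries, 11.9% had both libraries numbered 1 above all others and 1.1% were over 4-fold in both groups. The same held for 19 and 13 of the 25 members above that mean, and nothing is read from this, since the contrast helped to choose them. The 6 members below that mean were Kirrel, Plce1, Trpc6, Lmx1b, Foxc2 and Pdgfra.

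**Figure D1:**
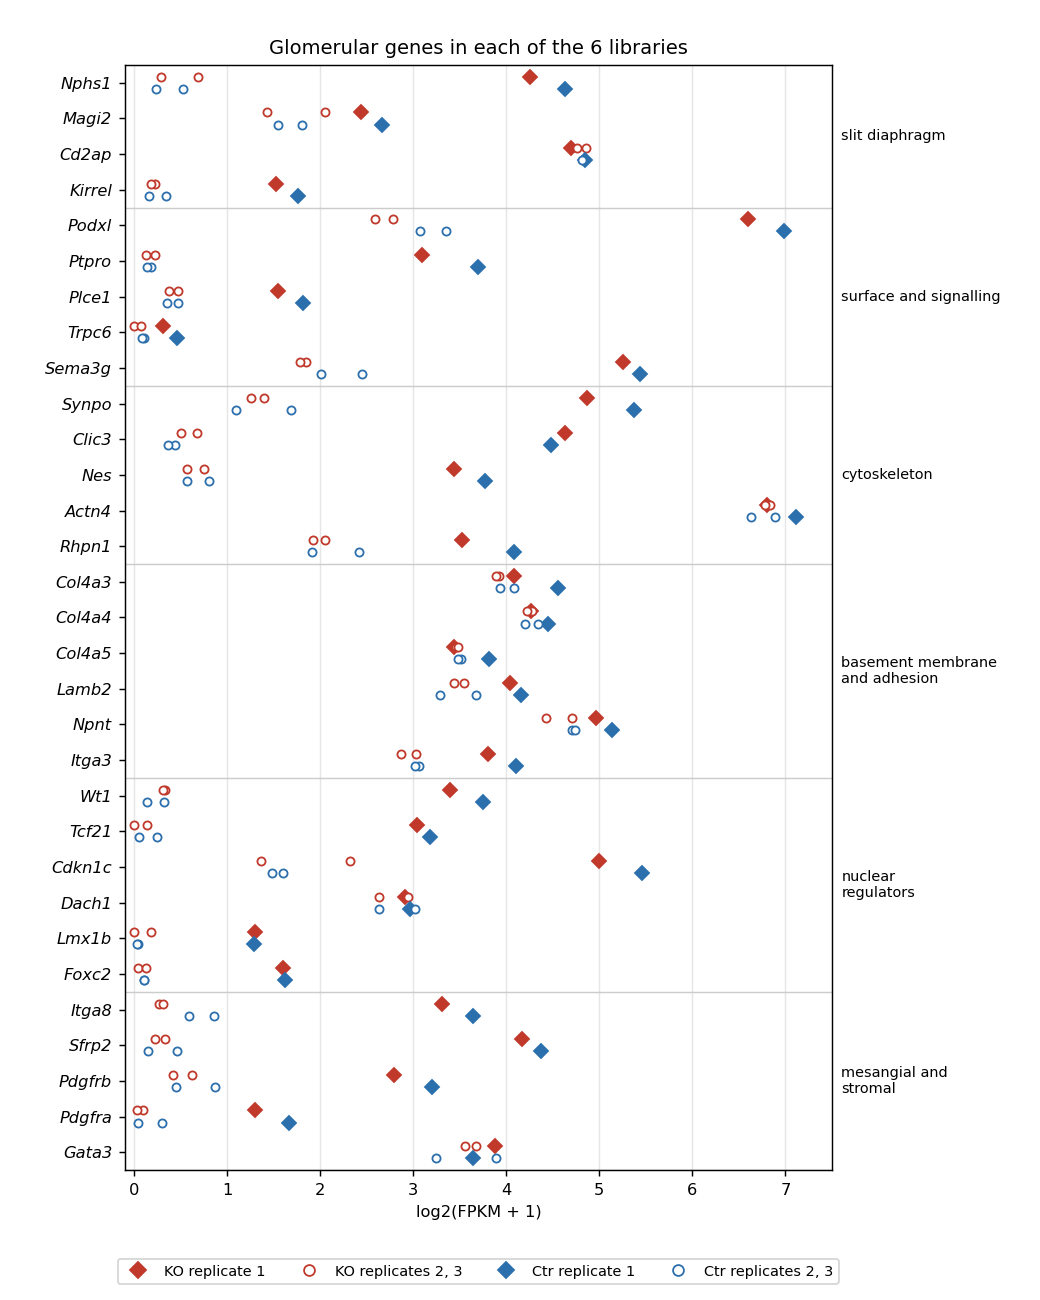
Each of the 31 genes in each library, as log2(FPKM + 1), with KO libraries above Ctr libraries in each row, filled diamonds for the libraries numbered 1 and open circles for those numbered 2 and 3. The diamonds lie far to the right of the circles for genes such as Nphs1, Podxl and Sfrp2 and among the circles for Cd2ap, Dach1 and Gata3.

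Among the slit diaphragm genes, Nphs1 and Kirrel followed this pattern and Cd2ap did not. Nphs1 (ENSMUSG00000006649, GRCm38 chromosome 7, 30458315 to 30487223) encodes nephrin, the backbone of the slit diaphragm. It was at 18.1 FPKM in KO1 and at 0.22 and 0.61 FPKM in KO2 and KO3, against 23.7 FPKM in Ctr1 and 0.44 and 0.18 FPKM in Ctr2 and Ctr3. The libraries numbered 1 were thus 43.7-fold above the rest of KO and 76.5-fold above the rest of Ctr. Kirrel, which encodes the nephrin partner Neph1, was at 1.87 FPKM in KO1 and at 0.17 and 0.13 FPKM in KO2 and KO3, against 2.40 FPKM in Ctr1 and 0.27 and 0.12 FPKM in Ctr2 and Ctr3. Magi2, a scaffold that binds nephrin, was higher in the libraries numbered 1 by less, at 4.44, 1.70 and 3.13 FPKM in KO1, KO2 and KO3 and 5.32, 1.93 and 2.49 FPKM in Ctr1, Ctr2 and Ctr3. Cd2ap, an adaptor that anchors nephrin to actin and is made by many epithelia, was at 24.9 to 27.9 FPKM in KO and 27.1 to 27.8 FPKM in Ctr. It was lowest in KO1 and highest in KO2.

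Surface and signalling genes held the most abundant member of this pattern. Podxl (ENSMUSG00000025608, chromosome 6, 31519488 to 31563981), whose product podocalyxin coats foot processes with negative charge, was at 96.1 FPKM in KO1 and at 5.0 and 5.90 FPKM in KO2 and KO3. In Ctr it was at 126 FPKM in Ctr1 and at 9.19 and 7.44 FPKM in Ctr2 and Ctr3. Endothelial cells also make podocalyxin. Ptpro, a receptor tyrosine phosphatase of the podocyte surface, was at 7.51 FPKM in KO1 and 0.09 and 0.17 FPKM in KO2 and KO3, against 11.9 FPKM in Ctr1 and 0.13 and 0.10 FPKM in Ctr2 and Ctr3. The low values of Ptpro lie near 0.10 FPKM, and how many fragments they stand for depends on the length of its transcript. Sema3g, a secreted semaphorin of podocytes and arterial endothelium, was at 37.1, 2.61 and 2.45 FPKM in KO1, KO2 and KO3 and 42.3, 4.45 and 3.02 FPKM in Ctr1, Ctr2 and Ctr3. Plce1, a phospholipase C, was at 1.91, 0.39 and 0.30 FPKM in KO and 2.51, 0.28 and 0.39 FPKM in Ctr, in the order of the replicate numbers. Trpc6, a calcium channel at the slit diaphragm, was the lowest of the 31. It was at 0.24 FPKM in KO1, listed at 0 in KO2 and at 0.05 FPKM in KO3, against 0.38 FPKM in Ctr1 and 0.08 and 0.06 FPKM in Ctr2 and Ctr3.

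Of the cytoskeletal genes, Synpo, Nes and Clic3 were over 4-fold higher in the libraries numbered 1, Rhpn1 by less, and Actn4 was high in every library. Synpo, which encodes the actin-associated synaptopodin of foot processes, was at 28.2, 1.38 and 1.64 FPKM in KO1, KO2 and KO3 and 40.3, 2.22 and 1.14 FPKM in Ctr1, Ctr2 and Ctr3. Nes, the intermediate filament nestin, was at 9.86 FPKM in KO1 and 0.68 and 0.48 FPKM in KO2 and KO3, against 12.7 FPKM in Ctr1 and 0.75 and 0.48 FPKM in Ctr2 and Ctr3. Clic3 encodes a chloride intracellular channel protein. At 23.8 FPKM in KO1 and 21.4 FPKM in Ctr1 it was one of the few members higher in KO1, and it was at 0.60 and 0.42 FPKM in KO2 and KO3 and at 0.36 and 0.29 FPKM in Ctr2 and Ctr3. Rhpn1 was at 10.5, 2.80 and 3.16 FPKM in KO and 16.0, 2.77 and 4.34 FPKM in Ctr. Actn4, an actin crosslinker present in most cells, was at 110.9, 112.8 and 109.1 FPKM in KO1, KO2 and KO3 and 137.7, 97.8 and 117.7 FPKM in Ctr1, Ctr2 and Ctr3. KO1 thus lay among the other libraries for Actn4, and Ctr1 above them.

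Genes of the basement membrane and of adhesion to it were at 6.28 FPKM or more in all libraries, and both libraries numbered 1 lay above the other 4 for 4 of the 6, by 2.24-fold at most within a group. Col4a3, Col4a4 and Col4a5 encode the collagen chains that assemble into the network of the mature glomerular basement membrane. Col4a3 (chromosome 1, 82586921 to 82722059, plus strand) was at 16.0, 14.1 and 13.8 FPKM in KO1, KO2 and KO3 and 22.5, 15.9 and 14.3 FPKM in Ctr1, Ctr2 and Ctr3. Col4a4 (82448423 to 82586849, minus strand), which starts 71 bases away in the window printed above, was at 18.3, 18.3 and 17.6 FPKM in KO and 20.9, 19.2 and 17.4 FPKM in Ctr. Col4a5, on chromosome X, was at 9.81, 9.96 and 10.15 FPKM in KO and 13.0, 10.4 and 10.2 FPKM in Ctr. For all 3 chains Ctr1 was the highest library, by up to 1.49-fold over the mean of Ctr2 and Ctr3, and KO1 was within 1.14-fold of the mean of KO2 and KO3. Lamb2, the laminin beta-2 chain, was at 15.4, 10.7 and 9.85 FPKM in KO and 16.8, 11.8 and 8.74 FPKM in Ctr. Npnt, which encodes nephronectin, the basement membrane ligand of the mesangial integrin alpha-8, was at 30.1, 25.2 and 20.5 FPKM in KO and 34.2, 25.1 and 25.7 FPKM in Ctr. Itga3, the integrin chain that binds podocytes to laminin, was at 12.9, 7.14 and 6.28 FPKM in KO and 16.3, 7.37 and 7.12 FPKM in Ctr. For Lamb2, Npnt and Itga3 both libraries numbered 1 were the highest of their group.

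The nuclear regulators split in the same way. Wt1, the zinc finger factor of podocytes, was at 9.53 FPKM in KO1 and 0.26 and 0.24 FPKM in KO2 and KO3, against 12.4 FPKM in Ctr1 and 0.25 and 0.10 FPKM in Ctr2 and Ctr3. Tcf21, a helix-loop-helix factor of podocytes and stroma, was at 7.20 FPKM in KO1, 0.10 FPKM in KO2 and listed at 0 in KO3, against 8.06, 0.19 and 0.04 FPKM in Ctr1, Ctr2 and Ctr3. Cdkn1c, a cell cycle inhibitor of mature podocytes, was at 30.9, 1.58 and 4.0 FPKM in KO and 43.0, 2.04 and 1.79 FPKM in Ctr. KO3 stood above KO2, Ctr2 and Ctr3 for Cdkn1c. The LIM homeodomain factor Lmx1b was at 1.46 FPKM in KO1, listed at 0 in KO2 and at 0.13 FPKM in KO3, against 1.45, 0.03 and 0.02 FPKM in Ctr1, Ctr2 and Ctr3. Foxc2, a forkhead factor, was at 2.03 FPKM in KO1 and 2.07 FPKM in Ctr1, and between 0.03 and 0.09 FPKM in the others. Dach1, which tubule cells make too, was at 6.52, 6.69 and 5.19 FPKM in KO and 6.79, 7.10 and 5.21 FPKM in Ctr, with the libraries numbered 1 and 2 alike.

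Mesangial and stromal members were high in the same libraries as the podocyte members, except for Gata3. Sfrp2 (ENSMUSG00000027996, chromosome 3, 83766321 to 83774316), a secreted Wnt modulator, was at 17.0 FPKM in KO1 and 0.17 and 0.26 FPKM in KO2 and KO3, against 19.7 FPKM in Ctr1 and 0.38 and 0.11 FPKM in Ctr2 and Ctr3. Its fold was 79.0 within KO and 80.5 within Ctr. Itga8, the integrin chain that receives nephronectin, was at 8.93 FPKM in KO1 and 0.20 and 0.24 FPKM in KO2 and KO3, against 11.4 FPKM in Ctr1 and 0.82 and 0.50 FPKM in Ctr2 and Ctr3. Both receptors for platelet-derived growth factor were in the pattern. Pdgfrb, the receptor of mesangial cells and pericytes, was at 5.95, 0.54 and 0.34 FPKM in KO and 8.23, 0.83 and 0.37 FPKM in Ctr. Pdgfra, the receptor of stromal fibroblasts, was at 1.47, 0.07 and 0.02 FPKM in KO and 2.18, 0.23 and 0.03 FPKM in Ctr. Gata3, a factor of mesangial cells that the collecting duct also makes, was at 13.8, 11.8 and 10.7 FPKM in KO and 11.5, 13.9 and 8.47 FPKM in Ctr. Its highest library was Ctr2, followed by KO1.

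Within the libraries numbered 1, most of the glomerular genes were lower in KO1 than in Ctr1. The ratio of KO1 to Ctr1 was below 1 for 28 of the 31 members, all but Clic3, Lmx1b and Gata3. Over the 19 members above the 4-fold line it had a median of 0.767 and ran from 0.63 (Ptpro) to 1.11 (Clic3). Over all genes tested the median ratio was 0.978, and 54.7% were lower in KO1. Each side is a single library, so this ratio has no replicate check. In the libraries numbered 2 the level was lower in KO for 24 of the 31 members. In those numbered 3 it was lower for 16 and higher for 14, with Nes equal in both. The share of all genes was not computed for these pairs, and many members are under 1 FPKM there. Nothing is therefore read from these counts.

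**Figure D2:**
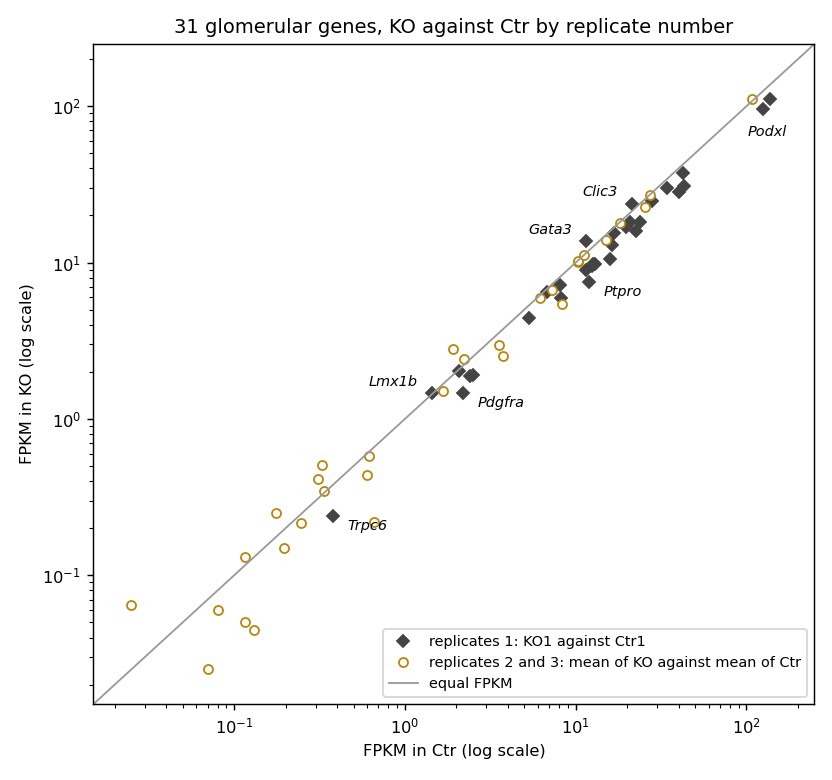
FPKM of the 31 genes in KO (vertical) against Ctr (horizontal), both on log scales, with diamonds for KO1 against Ctr1, circles for the means of replicates 2 and 3, and a line where both are equal. Most diamonds lie just below the line, with Clic3, Gata3 and, barely, Lmx1b above it, while the circles spread to both sides at low FPKM.

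No member passed a test of KO against Ctr. By limma on log2(FPKM + 1), 0 of the 25 members tested had an adjusted p under 0.05, and 0 had an unadjusted p under 0.05. Over all genes tested, 3 passed, which is 0.0235% (0.0157% higher and 0.00783% lower in KO). An unadjusted p under 0.05 by limma was found for 448 of all 12770 genes, a share so low that 0 of 25 says little. The interval was wide for the members that followed the replicate number: at the median, the 95% interval reached 2.04 log2 units to either side for the 25 members and 0.29 for all genes. Without a term for the replicate number, a change of several fold in these genes between KO and Ctr could therefore not be detected. Estimates were lower in KO for 22 of the 25 members, against 56.4% of all genes, and the median log2 change was -0.10, against -0.02 for all genes. The direction of this median rests on single libraries: it was 0.57 without Ctr1 and -0.99 without KO1.

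For single members the estimates were small beside their errors. The log2 change was -0.05 (SE 1.43) for Nphs1, -0.48 (SE 1.36) for Podxl, -0.33 (SE 1.18) for Sema3g, -0.40 (SE 1.06) for Itga8 and 0.17 (SE 1.44) for Clic3. Members that differed little between the libraries of a group were measured far more tightly. Cd2ap had a log2 change of -0.06 (95% interval -0.23 to 0.11) and Actn4 one of -0.07 (95% interval -0.36 to 0.21). Col4a3 was at -0.23 (95% interval -0.61 to 0.15), Col4a5 at -0.15 (95% interval -0.40 to 0.10) and Gata3 at 0.11 (95% interval -0.30 to 0.52). The limma adjusted p was 0.9996 for each of these 10 genes. Col4a5 was the 1 member whose groups did not overlap, with every KO library below every Ctr library, where 8.59% of all genes tested had groups that did not overlap.

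With the replicate number as a block, which compares KO with Ctr within each number, the errors of the same members shrank. Podxl kept its log2 change of -0.48 with an SE of 0.11 in place of 1.36, Sema3g had an SE of 0.11 and Itga8 one of 0.13. These were the 3 members of 25 with an unadjusted p under 0.05 in that fit, against 5.64% of all genes, and 0 members passed, against 0.0313% of all genes (limma adjusted p = 0.785 for Podxl and 0.878 for Sema3g and Itga8). All 3 were lower in KO in each of the 3 pairs of equal number. The ratio of KO to Ctr over the libraries numbered 2 and 3 was 0.655 for Podxl, 0.677 for Sema3g and 0.333 for Itga8. The ratio of Itga8 rests on low values, 0.20 to 0.82 FPKM, and is the least certain of the 3. Lower in KO in 3 of 3 pairs were 9 of the 25 members, against 15.3% of all genes tested, and higher in 3 of 3 was Clic3 alone, against 11.6%. In the libraries numbered 1 alone, 23 of the 25 were already lower in KO. Of the 9, Tcf21, Itga8 and Pdgfrb were under 1 FPKM in every library numbered 2 or 3. Nothing is read from these counts.

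Without KO1 and Ctr1, the 25 members had a median log2 change of -0.03, with 16 lower and 9 higher in KO. The 25 were kept by their mean over all 6 libraries. Podxl was at -0.53 (95% interval -0.91 to -0.15, limma adjusted p = 0.9997) and was the 1 member with an unadjusted p under 0.05, against 3.43% of all genes. Nphs1 was at 0.10 (95% interval -0.48 to 0.68), Wt1 at 0.09 (95% interval -0.40 to 0.58) and Sfrp2 at -0.03 (95% interval -0.55 to 0.50). These 3 genes are at 0.61 FPKM or less in the 4 libraries left, where log2(FPKM + 1) understates any fold. Ptpro, Tcf21, Clic3, Nes, Itga8 and Pdgfrb are under 1 FPKM in these libraries too. The median of -0.03 therefore does not show a lack of difference.

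**Figure D3:**
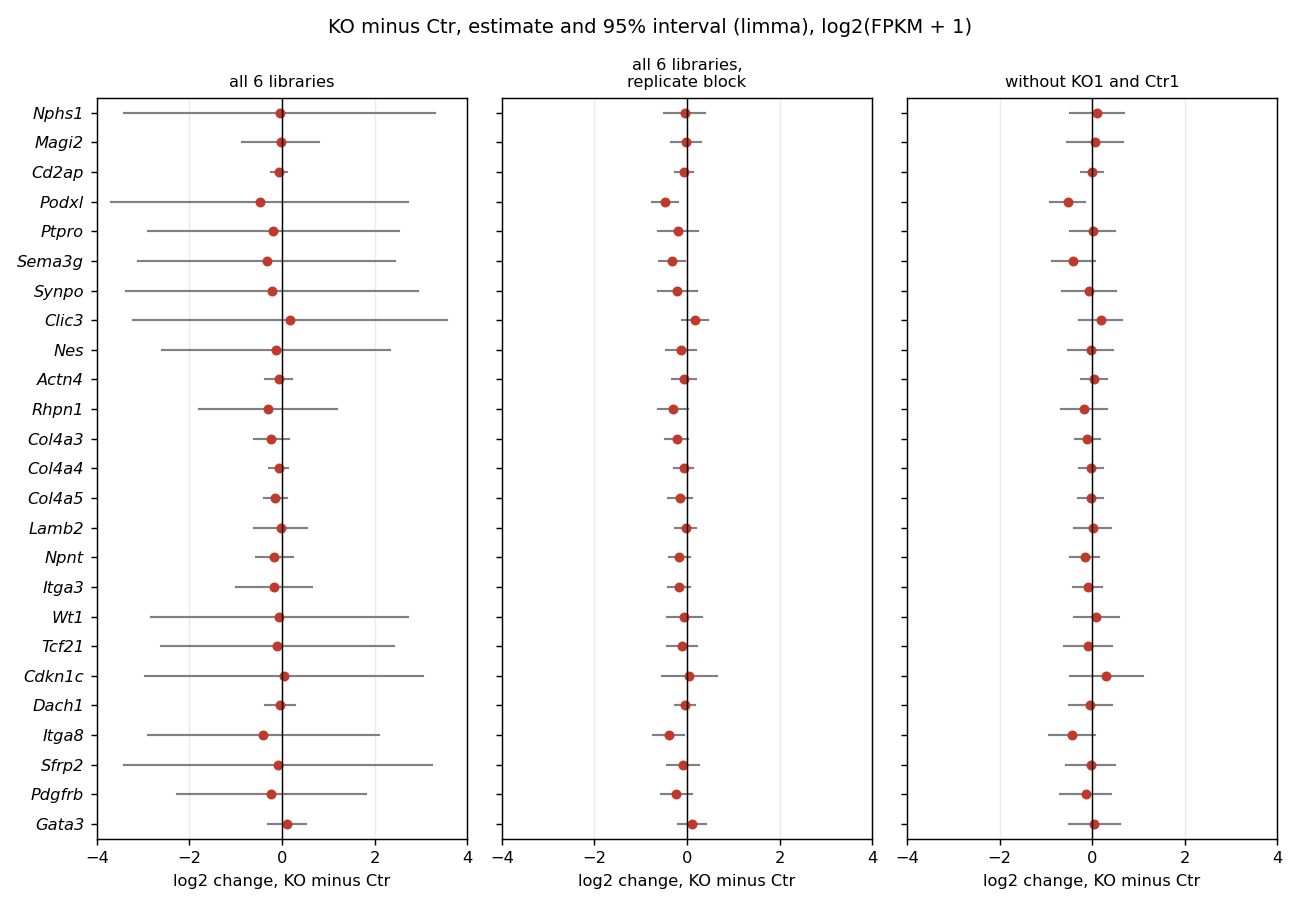
The log2 change of the 25 members tested, KO minus Ctr, with 95% intervals by limma, from all 6 libraries, from all 6 with the replicate block, and without KO1 and Ctr1. The intervals of genes such as Nphs1, Podxl and Sfrp2 span several log2 units in the left panel and under 2 in the other 2 panels. The estimates of Nphs1 and Sfrp2 stay near 0. Podxl lies at -0.48 with the block and at -0.53 without KO1 and Ctr1. Its intervals there lie below 0 and are not adjusted for the number of genes.

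Other genes of the glomerulus shared the pattern in part. All genes tested were ranked by a gap on log2(FPKM + 1). It runs from the highest of the other 4 libraries to the lower of the 2 libraries numbered 1. This contrast helped to choose the members, so their ranks are a description only. The members Clic3, Sfrp2 and Nphs1 ranked sixth, seventh and ninth, and 13 members were among the first 50 genes. Over all genes tested, 11.9% lay above all 4 other libraries in both KO1 and Ctr1. The lists below were chosen with earlier results known, and some of their genes passed the filter only through KO1 and Ctr1. Of the 18 other podocyte genes tested 12 lay above in this way, with a median log2 difference of 0.64. With no filter, 18 of the 24 other podocyte genes did. The 4 most abundant of that list were Ezr, Arhgap24, Vegfa and Enpep, and only Enpep among them lay above. Tubule cells also make Ezr, Vegfa and Enpep. Of 14 other mesangial genes 12 did so (median 1.36), among them Igfbp5, which was at 74.3, 29.0 and 25.2 FPKM in KO and 104, 23.0 and 36.1 FPKM in Ctr. Other basement membrane genes differed less (9 of 14 above and 1 below, median 0.26). The parietal epithelium of Bowman's capsule, the neighbouring cell layer, had 2 of 5 genes above and 1 below (median 0.10). Prom1, whose product was used to pull the cells, was 1 of these 2. Of the juxtaglomerular and smooth muscle genes 2 of 6 lay above (median 0.65).

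Markers of some other cells moved with the glomerular genes, and their part in the pattern was not tested. All 15 endothelial markers lay above the other 4 libraries in KO1 and Ctr1, where 11.9% of all genes tested did. The endothelial markers summed to 280.6 FPKM in KO1 and 40.2 and 32.1 FPKM in KO2 and KO3. In Ctr they summed to 358.8 FPKM in Ctr1 and 45.5 and 36.0 FPKM in Ctr2 and Ctr3. Plat, Kdr and Ehd3 had the widest gap of the 15 genes on this list. Plat was at 62.3, 2.41 and 3.04 FPKM in KO and 88.8, 3.17 and 2.73 FPKM in Ctr. Red cell genes had the highest fold: the erythroid list summed to 138.8, 0.99 and 5.40 FPKM in KO1, KO2 and KO3 and 297.2, 2.27 and 2.07 FPKM in Ctr1, Ctr2 and Ctr3. Hbb-bs alone was at 64.9 FPKM in KO1 and 134.1 FPKM in Ctr1. Leukocyte genes summed to 43.7, 25.0 and 18.9 FPKM in KO and 38.0, 22.0 and 21.2 FPKM in Ctr. Of the 4 leukocyte genes tested 3 lay above. With no filter 7 of 12 did, with a median log2 difference of 0.31. Fibroblast genes summed to 10.4, 4.33 and 3.72 FPKM in KO and 9.76, 6.06 and 4.79 FPKM in Ctr. Both of the 2 fibroblast genes tested lay above. With no filter only 3 of 8 did, with a median log2 difference of 0.03. Cd79a of B cells was picked after its values were seen. It was at 0.51 FPKM in KO1 and 0.46 FPKM in Ctr1, and listed at 0 in all 4 libraries numbered 2 and 3. The leukocyte genes Csf1r, Ptprc, Cd68, C1qc and Cd3e did not lie above the other 4 libraries in both KO1 and Ctr1. Csf1r had a log2 difference of -0.33. The stromal factor Tbx18 was listed at 0 in all 6 libraries. H2-Q6, H2-Q7, Hba-a1 and Hba-a2 were also among the 10 other genes with the widest gap, but near-identical copies share their reads, so the level of each is uncertain. Cd300lg, an endothelial mucin receptor, was another of the 10.

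Some lists ran the other way. Of 18 genes of the response to tissue dissociation 11 lay below the other 4 libraries in KO1 and Ctr1, with a median log2 difference of -0.53, where 11.2% of all genes tested lay below in the same way. Fos, the most abundant, was at 521.2, 1020 and 795.9 FPKM in KO and 677.8, 947.3 and 708.2 FPKM in Ctr. Genes of the thick ascending limb lay below in 5 of 8, with a median of -0.47, and those of the distal tubule and collecting duct in 3 of 15, a share near that of all genes, with a median of -0.28. Proximal tubule markers had a median of 0.07, with 1 of 20 above and 1 below. No gene of any of these lists passed KO against Ctr by limma, and 2 had an unadjusted p under 0.05, 1 of the proximal tubule and 1 of the distal tubule and collecting duct.

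**Figure D4:**
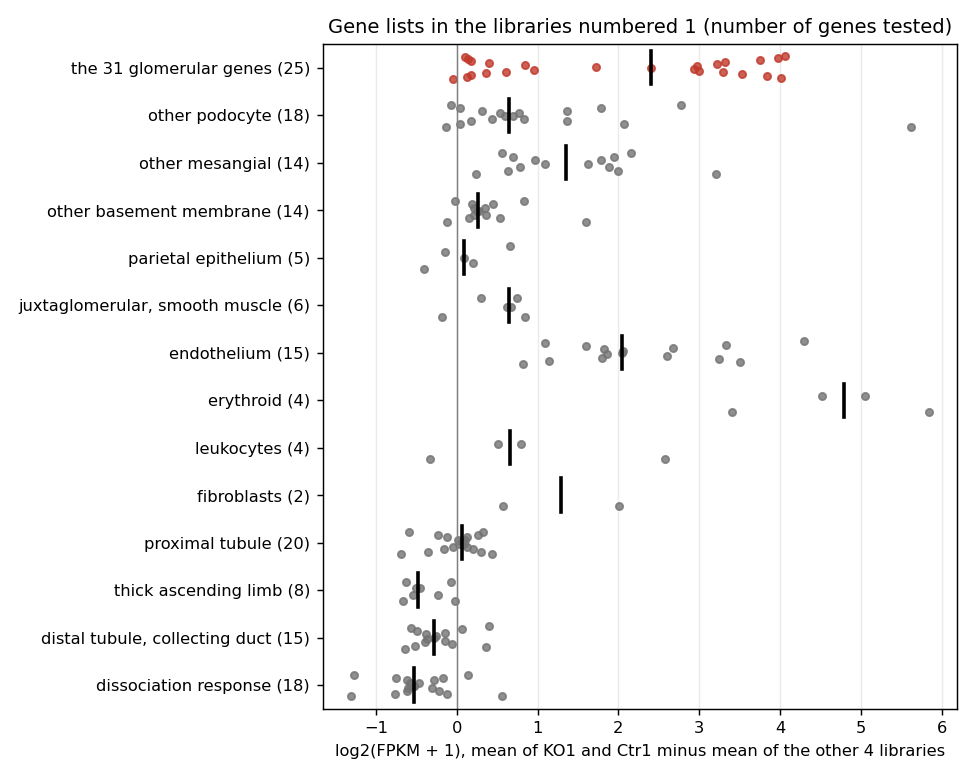
Difference in log2(FPKM + 1) between the mean of KO1 and Ctr1 and the mean of the other 4 libraries, with 1 point per gene tested and a bar at each list's median. The endothelial and erythroid genes lie to the right of 0, as do most of the glomerular genes. The proximal tubule genes lie around 0, and the dissociation response and thick ascending limb genes mostly to the left.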

How the data were processed

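RNA-seq values of 6 libraries (3 KO, 3 Ctr, grouped by their labels) were used as 1 table of FPKM with 2 decimals, as deposited by the authors. The kit kept strand, per the labels' protocols. The tools listed, per the submitters' processing notes, are RSEM, DESeq2 1.28.1 and STAR 2.6.0c, without their roles. Build, annotation and use of strand in counting: not given in the sources used here. Of the members, 18 overlap an annotated gene on the other strand, and without strand their reads cannot be told apart. FPKM is relative to each library's total, so abundant genes shift the rest. Gene positions came from GENCODE M21 (GRCm38), where 99.4% of the identifiers were found. The deposited values hold no counts, and depth was estimated from steps of 1 fragment in genes with 1 transcript.

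Genes with a mean of at least 1 FPKM (12770) were tested as log2(FPKM + 1) with limma 3.58.1 in R 4.3.3 (intensity trend, two-sided, Benjamini-Hochberg over all genes, threshold 0.05). The pseudocount of 1 understates changes of low genes. The script was tested on simulated data. Named genes were all members, Igf1r, the 4 most abundant genes of a list where a result turned on them, and the 10 other genes with the widest gap between the libraries numbered 1 and the rest. Members and lists were chosen with earlier results of these data known. Cd79a, Tbx18 and the leukocyte genes named beside Cd79a, outside that rule, were named after their values were seen. Of the 10, 1 gene is not reported here.

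Deviations from the group means correlated by 0.63, 0.29 and 0.37 between KO and Ctr libraries numbered 1, 2 and 3. The numbers were taken to pair them, from the data and not the labels. Within a group these deviations sum to 0 for each gene. With the libraries numbered 1 alike, those numbered 2 and 3 then correlate above 0 on average, whatever their pairing. KO2 with Ctr3 gave 0.30, so the pairing of numbers 2 and 3 is an assumption. Nothing says whether libraries of a group came from separate animals beyond the words biological replicate, and p-values measure the spread between these libraries.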

Additional observations from a re-analysis of the deposited data

How the results depend on the processing

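In all 16 alternatives 0 members passed KO against Ctr by limma, the lowest adjusted p of a member being 0.785, and Igf1r stayed lower in KO (log2 change -1.73 to -1.41). The replicate block changed no call of a member: it gave 4 genes past the threshold among all genes, against 3, and 0 members. The count over all genes was 1 at a mean of at least 5 FPKM, 6 without both libraries numbered 1, and 0 to 4 with 1 library left out. The median difference of the members between the libraries numbered 1 and the other 4 was 2.41. It was 3.58 with a pseudocount of 0.1, 2.90 with 0.5, 1.42 with no filter, which adds the low members, 0.79 at a mean of at least 5 FPKM, which keeps fewer of them, and 2.20 to 2.61 with 1 library left out. The median log2 change of the members, KO against Ctr, was -0.99 to 0.57 with 1 library left out. Of the 25 members tested, 20 changed sign when some 1 library was left out. The log2 change ran from -1.31 to 1.36 for Nphs1, -1.78 to 0.78 for Podxl, -1.48 to 0.74 for Sema3g, -1.41 to 0.57 for Itga8, -1.17 to 1.53 for Clic3, -0.20 to 0.05 for Actn4 and -0.07 to 0.26 for Gata3. Nphs1 was at 0.07 with a pseudocount of 0.1 and at 0.10 without both libraries numbered 1, where Actn4 was at 0.05. The cause was not tested, other than that fewer libraries or genes enter by construction. Depth limits members under about 0.1 FPKM.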
